A study of Homo sapiens with 6 samples.

Results

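The genes described here are 60 genes of mitosis, the spindle and the kinetochore, taken by symbol from a list of cell division regulators and structural parts. All 60 were found among the 58395 genes counted in each library, and all 60 passed the filter on low counts that left 16542 genes for testing. They were measured in THP-1 cells, a human acute monocytic leukaemia line that grows in suspension, kept in RPMI medium with 10% fetal bovine serum. There were 3 libraries of cells given 1 µM monensin for 16 h and 3 libraries of cells with no exposure, called untreated here. Monensin is a polyether ionophore that exchanges sodium ions for protons across membranes. Both groups were the same single cell line, and the label of the untreated cells names no vehicle, so an effect of a vehicle and that of monensin cannot be told apart. Whether the replicates were separate cultures is not stated in the labels; the p-values then cover only the spread between these libraries, which may be technical.

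Dividing cells make most of these transcripts late in the cell cycle. Cyclin-dependent kinase and the polo and aurora kinases drive entry into mitosis, condensin compacts chromosomes, kinesins and spindle proteins build and move the spindle, and the kinetochore joins chromosomes to it. The spindle checkpoint holds the anaphase-promoting complex (APC/C) in check until all chromosomes are attached; the complex then marks securin and B-type cyclins for destruction and separase cuts cohesin. Many of these genes carry a cell cycle homology region (CHR) in their promoter, an element bound by the MuvB core of the DREAM repressor and of the MYBL2 and FOXM1 activator complexes, often near CCAAT boxes bound by NF-Y.

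Promoter windows from 250 bases before to 50 bases after the gene start (RefSeq, GRCh38.p14) were at hand for 51 of the 60 genes. The genes without one in the table were AURKA, BIRC5, BUB3, CENPH, CENPM, FOXM1, TPX2, TTK and UBE2C. The windows of 4 genes are shown because they span the range of responses: SPC25 had the lowest fold change, CDC25B was the gene raised, PTTG1 the gene not called, and CCNB2 was lowered little although its window holds both elements. SPC25 lies on the minus strand and the other genes on the plus strand. Capitals mark the CHR letters TTTGAA and the CCAAT box on either strand, so that a CCAAT box on the opposite strand reads ATTGG.
SPC25, chr2:168890381-168890680, minus strand: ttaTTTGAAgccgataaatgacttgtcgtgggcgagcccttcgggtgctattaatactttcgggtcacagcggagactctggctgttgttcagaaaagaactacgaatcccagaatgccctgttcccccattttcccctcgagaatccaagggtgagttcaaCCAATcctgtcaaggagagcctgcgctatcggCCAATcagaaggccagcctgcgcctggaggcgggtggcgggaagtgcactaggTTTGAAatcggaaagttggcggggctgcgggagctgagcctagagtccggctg
CCNB2, chr15:59104896-59105195, plus strand: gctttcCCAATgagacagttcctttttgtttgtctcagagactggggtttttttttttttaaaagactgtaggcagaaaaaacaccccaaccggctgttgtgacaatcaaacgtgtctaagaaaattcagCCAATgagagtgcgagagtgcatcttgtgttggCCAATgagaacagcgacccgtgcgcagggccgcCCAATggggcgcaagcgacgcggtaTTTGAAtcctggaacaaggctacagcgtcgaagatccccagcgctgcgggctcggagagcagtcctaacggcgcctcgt
PTTG1, chr5:160421605-160421904, plus strand: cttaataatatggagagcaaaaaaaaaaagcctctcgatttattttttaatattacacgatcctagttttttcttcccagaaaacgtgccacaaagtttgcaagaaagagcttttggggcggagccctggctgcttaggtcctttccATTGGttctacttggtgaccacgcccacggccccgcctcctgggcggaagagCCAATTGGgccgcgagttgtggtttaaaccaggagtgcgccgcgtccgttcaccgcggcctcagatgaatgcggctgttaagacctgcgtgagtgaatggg
CDC25B, chr20:3786701-3787000, plus strand: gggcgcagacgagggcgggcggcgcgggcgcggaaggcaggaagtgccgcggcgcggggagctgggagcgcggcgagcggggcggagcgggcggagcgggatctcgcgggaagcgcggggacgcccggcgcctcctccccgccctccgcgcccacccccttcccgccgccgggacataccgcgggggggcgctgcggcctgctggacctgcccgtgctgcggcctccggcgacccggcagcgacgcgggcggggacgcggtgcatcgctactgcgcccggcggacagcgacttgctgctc

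The SPC25 window held 2 TTTGAA matches and 2 CCAAT boxes, and the CCNB2 window held 1 TTTGAA match and 4 CCAAT boxes. The PTTG1 window held 3 CCAAT boxes, of which a pair share letters, and no CHR match. Neither element was found in the CDC25B window shown. CDC25B has 4 listed starts, and of these windows 1 held a CHR match and 2 held CCAAT; a match, or its absence from a window, says nothing about binding.

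Gene counts came to 24774546, 24170789 and 22975888 in the monensin libraries and 25710513, 24159573 and 25378060 in the untreated libraries. Reads assigned to no gene made up 21.2% to 22% of tallied alignments in monensin libraries and 19.1% to 19.8% in untreated libraries. No pair of replicates agreed within sampling noise. The monocytic label could be checked on 12 markers, all of which were tested. CPM is each count scaled by the library's depth, after adjustment by the trimmed mean of M values, and means are given ± SD of 3 libraries. LYZ, the lysozyme of monocytes, averaged 292 ± 24.2 CPM in monensin libraries and 789.8 ± 14.3 CPM in untreated libraries, and CEBPA, a myeloid transcription factor, averaged 798 ± 6.18 CPM in monensin libraries and 498 ± 10.1 CPM in untreated libraries (SD, n = 3 each). CD14 was low in both groups, at 2.37 ± 0.289 CPM in monensin libraries and 0.480 ± 0.0690 CPM in untreated libraries. Its log2 fold change of 2.30 was the highest of the 12 markers. CD68 was raised (log2 fold change 1.10), as was CEBPA, while LYZ, MPO (-0.63), CD33 (-0.40) and PTPRC (-0.21) were lowered; the PTPRC call was lost with total counts (edgeR adjusted p = 0.0651) and its sign turned with trends in GC content and length removed (log2 fold change 0.054, edgeR adjusted p = 0.215). Of the 12 markers, 6 were raised, 4 were lowered and 2 were not called, and their summed level ranged from 3703 to 4033 CPM in monensin libraries and from 3398 to 3604 CPM in untreated libraries. Among 10 markers of other cell types, CD3E, EPCAM and KRT5 had no count in any library, and PECAM1, which monocytes also make, held most of the summed level of 310.2 to 332 CPM in monensin libraries and 262 to 269 CPM in untreated libraries; 4 of the 10 were tested, with 3 raised and none lowered. Over all tested genes, 33.7% were lowered and 34.1% were raised. The part of these markers in the results was not tested.

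Transcripts of mitotic genes were lower in monensin libraries for nearly the whole list. Of the 60 genes, 58 were lowered, 1 was raised and 1 was not called, while 33.7% of all tested genes were lowered and 34.1% were raised (edgeR quasi-likelihood test, Benjamini-Hochberg adjusted p under 0.05). In bulk libraries, fewer dividing cells and less RNA of these genes per cell cannot be told apart. The genes lowered at least 2-fold numbered 20, against 3.83% of all tested genes. In 57 genes every monensin library lay below every untreated library, against 35.2% of all tested genes. The median log2 fold change was -0.74, beside 0.02 over all tested genes, whose quartiles were -0.34 and 0.45. Mitotic genes were more abundant than most genes, with a median average log2 CPM of 6.27 against 4.18, so the same shares were taken over the 11564 genes whose average log2 CPM was 2 or more. There 42.7% were lowered, 3.36% were lowered at least 2-fold, 43.8% had all monensin libraries below all untreated libraries, and the median log2 fold change was -0.06.

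Together the 60 genes took 0.528%, 0.530% and 0.522% of gene counts in the monensin libraries, against 0.846%, 0.870% and 0.861% in the untreated libraries. The groups did not overlap, and the difference in means was -0.332 percentage points (exact permutation test, two-sided, p = 0.1, the smallest that 3 libraries against 3 allow). With genes of the mitochondrial chromosome left out of the total, the difference was -0.372 percentage points. Their summed level was 5113 ± 24.2 CPM in monensin libraries and 8847 ± 150.3 CPM in untreated libraries (SD, n = 3 each), or 57.8%.

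**Figure D1:**
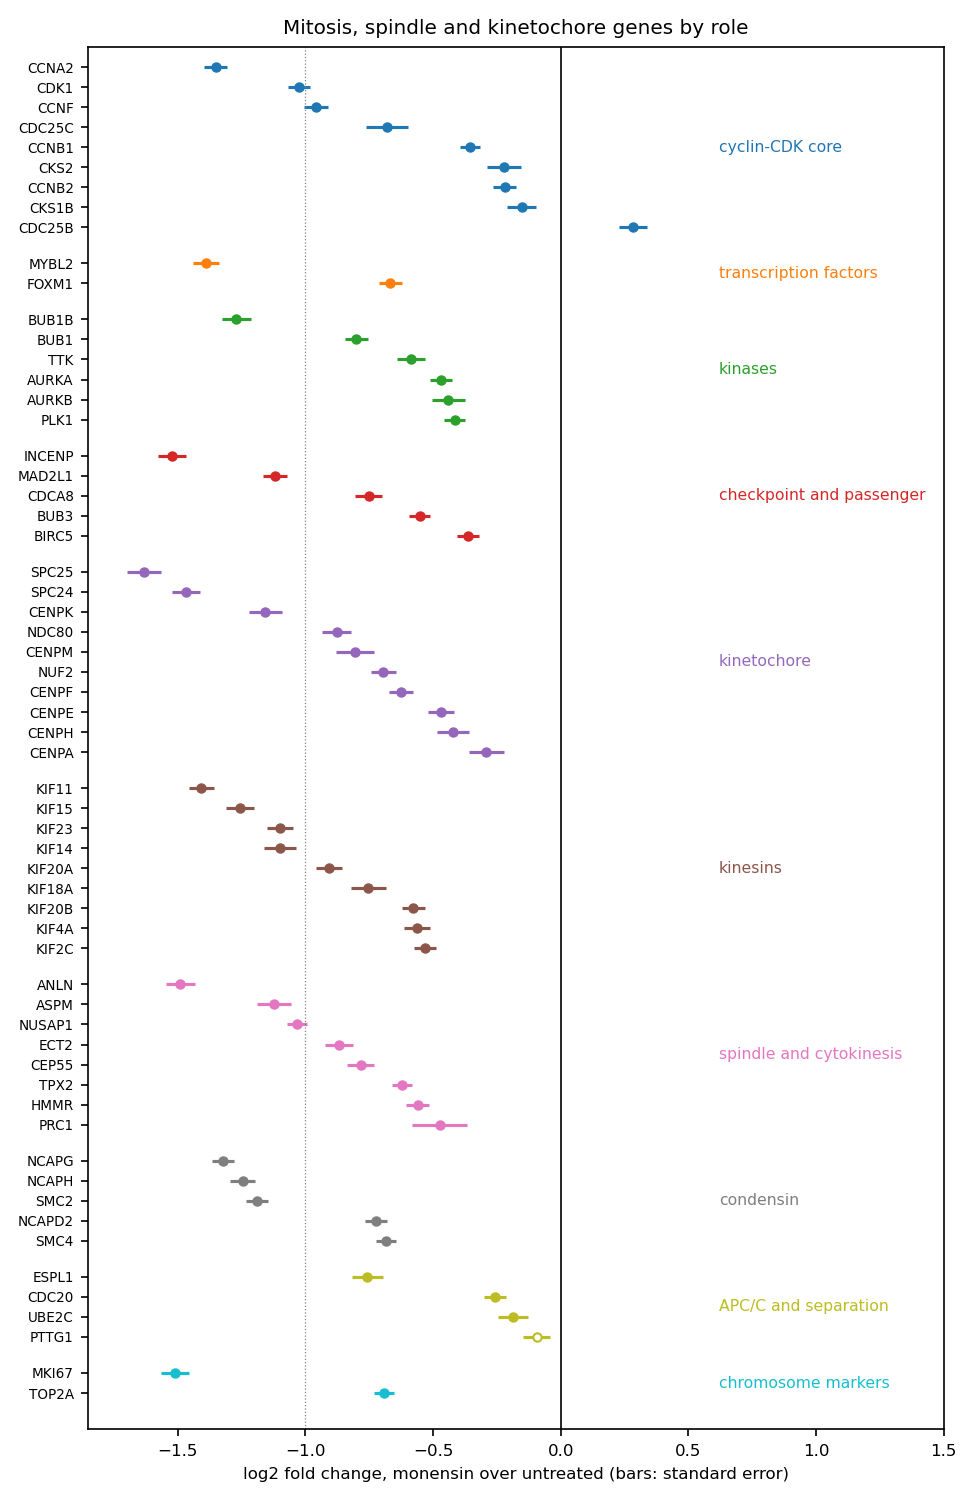
Log2 fold change of each of the 60 genes, monensin over untreated, with its standard error as a bar, grouped by role; filled points passed an adjusted p under 0.05 (edgeR) and the dotted line marks a 2-fold reduction. Points run from SPC25 at -1.63 to CDC25B at 0.28, and the open point is PTTG1.

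The median reduction is given by role. Counts by role in the paragraphs below stand beside 33.7% lowered and 3.83% lowered at least 2-fold over all tested genes. Monensin libraries all lay below untreated libraries in 35.2% of tested genes. At an average log2 CPM of 2 or more, these shares were 42.7%, 3.36% and 43.8%. Median log2 fold changes were -1.19 for the 5 condensin genes, -1.10 for the 2 chromosome markers, -1.03 for the 2 transcription factors and -0.91 for the 9 kinesins. They were -0.83 for the 8 spindle and cytokinesis genes, -0.75 for the 10 kinetochore genes and -0.75 for the 5 checkpoint and passenger genes. The 6 kinases had a median of -0.53, the 9 genes of the cyclin-CDK core -0.36, and the 4 genes of APC/C activity and chromosome separation -0.22. These medians are descriptions over genes, which are not replicates, and the differences between roles were not tested. Their order depended on the fit. With trends in GC content and length removed, the transcription factors (-1.23) lay below condensin (-0.95), and the APC/C and separation genes (-0.41) lay below the cyclin-CDK core (-0.31). With total counts as library sizes, the APC/C and separation median was -0.14.

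The cyclin-CDK core held the widest spread, with 8 of 9 genes lowered, 2 of them at least 2-fold, and 1 raised. CCNA2, the A-type cyclin of S phase and G2, had 77.4, 82 and 76.8 CPM in the monensin libraries, against 198, 209 and 195 CPM in the untreated libraries. All 3 monensin libraries were below the untreated ones (log2 fold change -1.35, SE 0.05, edgeR adjusted p = 1.44e-12), and CCNA2 shares 9.08% of its exonic bases with EXOSC9 on the opposite strand. CDK1, the mitotic cyclin-dependent kinase, averaged 87.6 ± 2.11 CPM in monensin libraries and 178 ± 4.64 CPM in untreated libraries (SD, n = 3 each), or 49.2%. The B-type cyclins that activate it had fold changes nearer to 0. CCNB1 had 131, 129.5 and 131 CPM in the monensin libraries, against 169.8, 166 and 164 CPM in the untreated libraries. The groups did not overlap (log2 fold change -0.36, SE 0.04, edgeR adjusted p = 1.16e-06). CCNB2 had 78.9, 80.7 and 77.1 CPM in the monensin libraries, against 91.6, 95.1 and 89 CPM in the untreated libraries, again with no overlap (log2 fold change -0.22, SE 0.05, edgeR adjusted p = 0.00058).

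CKS1B and CKS2 encode small proteins that bind CDK complexes, and both sat near the threshold. CKS1B had 33.3, 33.7 and 33.5 CPM in the monensin libraries, against 39.9, 35.6 and 36.2 CPM in the untreated libraries. The groups were close but separate (log2 fold change -0.15, SE 0.06, edgeR adjusted p = 0.0289), and the call was lost with total counts as library sizes (edgeR adjusted p = 0.318) and without untreated replicate 1 (0.133), monensin replicate 1 (0.0734) or monensin replicate 2 (0.0578). CKS2 had 42.6, 48.4 and 44 CPM in the monensin libraries, against 54.5, 55.4 and 47.5 CPM in the untreated libraries, and here the highest monensin library passed the lowest untreated library (log2 fold change -0.22, SE 0.07, edgeR adjusted p = 0.00798), and the call was lost with total counts (edgeR adjusted p = 0.0840). CCNF, which encodes the F-box protein cyclin F, averaged 47.8 ± 2.06 CPM in monensin libraries and 92.9 ± 0.0524 CPM in untreated libraries. The phosphatase CDC25C, which removes inhibitory phosphates from CDK1, averaged 9.32 ± 0.792 CPM in monensin libraries and 14.9 ± 0.619 CPM in untreated libraries; it shares 8.78% of its exonic bases with FAM53C on the opposite strand.

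CDC25B, the paralogous phosphatase that acts at the start of mitosis, was the gene of the list that was raised. It had 35.8, 36.8 and 36.3 CPM in the monensin libraries, against 31.1, 29.2 and 29 CPM in the untreated libraries. The monensin libraries were all higher (log2 fold change 0.28, SE 0.06, edgeR adjusted p = 0.000282), although the call was lost when trends with GC content and length were removed (log2 fold change 0.10, edgeR adjusted p = 0.0976). CDC25B lies on chromosome 20 from 3786772 to 3806121 on GRCh38.

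Both transcription factors were lowered. MYBL2, also called B-Myb, the MuvB partner that switches on mitotic genes, had 191, 197 and 221 CPM in the monensin libraries, against 539.7, 526 and 531 CPM in the untreated libraries. The reduction was far beyond the spread between libraries (log2 fold change -1.39, SE 0.05, edgeR adjusted p = 2.41e-12). FOXM1, the forkhead factor that follows it at the same promoters, had 64.3, 64.4 and 67.9 CPM in the monensin libraries, against 106, 103 and 103 CPM in the untreated libraries. Its groups were also separate (log2 fold change -0.67, SE 0.05, edgeR adjusted p = 3.59e-09). FOXM1 shares 15.9% of its exonic bases with ITFG2 on the opposite strand; the kit marks strand, but whether the counting used it is not stated, so reads of such pairs cannot be told apart.

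All 6 kinases were lowered, 1 of them at least 2-fold. BUB1B encodes BubR1, the checkpoint pseudokinase that binds CDC20, and had 46.8, 46.5 and 43.2 CPM in the monensin libraries, against 101, 115 and 113 CPM in the untreated libraries. The untreated libraries were all more than 2-fold higher (log2 fold change -1.27, SE 0.06, edgeR adjusted p = 3.14e-11). PLK1, the polo kinase of mitotic entry and spindle assembly, changed least among the kinases and had 130.4, 133 and 139 CPM in the monensin libraries, against 177, 179 and 179 CPM in the untreated libraries. Its groups were nonetheless separate (log2 fold change -0.42, SE 0.04, edgeR adjusted p = 2.88e-07). AURKA, the centrosomal aurora kinase, averaged 74.8 ± 0.879 CPM in monensin libraries and 104 ± 1.81 CPM in untreated libraries, and AURKB, the kinase of the chromosomal passenger complex, averaged 24.2 ± 1.35 CPM in monensin libraries and 32.9 ± 2.02 CPM in untreated libraries (SD, n = 3 each). BUB1, a checkpoint kinase at the kinetochore, averaged 102 ± 4.21 CPM in monensin libraries and 178 ± 4.63 CPM in untreated libraries. TTK, also known as MPS1, which starts checkpoint signalling, averaged 40 ± 1.86 CPM in monensin libraries and 60.1 ± 2.58 CPM in untreated libraries.

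The 5 checkpoint and passenger genes were all lowered, 2 of them at least 2-fold. INCENP, the scaffold of the chromosomal passenger complex, had 36.8, 34.2 and 32.7 CPM in the monensin libraries, against 95.6, 100 and 102 CPM in the untreated libraries. It showed the lowest fold change in this role, with no overlap between groups (log2 fold change -1.52, SE 0.05, edgeR adjusted p = 2.41e-12), and lies on chromosome 11 from 62123973 to 62153163. The complex's other parts had fold changes nearer to 0. BIRC5, or survivin, had 122, 118 and 124 CPM in the monensin libraries, against 162, 154 and 152 CPM in the untreated libraries. Its groups were separate (log2 fold change -0.36, SE 0.04, edgeR adjusted p = 2.19e-06). CDCA8, which encodes borealin, averaged 38.9 ± 1.34 CPM in monensin libraries and 65.5 ± 2.61 CPM in untreated libraries. The checkpoint protein BUB3 had 179, 188 and 177 CPM in the monensin libraries, against 266, 272 and 259.7 CPM in the untreated libraries. The untreated libraries were all higher (log2 fold change -0.55, SE 0.04, edgeR adjusted p = 1.03e-08). MAD2L1, which encodes the MAD2 protein of the checkpoint complex, averaged 62.9 ± 1.81 CPM in monensin libraries and 137 ± 4.04 CPM in untreated libraries, or 46.0%.

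All 10 kinetochore genes were lowered, 3 of them at least 2-fold. SPC25, whose promoter is shown above and which encodes a subunit of the NDC80 complex that grips microtubules, had 10.5, 10.7 and 11.6 CPM in the monensin libraries, against 35.6, 32.9 and 33.1 CPM in the untreated libraries. This was the lowest log2 fold change of the 60 genes (log2 fold change -1.63, SE 0.07, edgeR adjusted p = 1.12e-11), and the groups lay far apart. SPC25 lies on chromosome 2 from 168834132 to 168913371. The window shown, at 168890381 to 168890680 on the minus strand, follows a RefSeq start inside this GENCODE 29 extent and not at its edge. SPC24, its partner in the same complex, averaged 22.2 ± 0.740 CPM in monensin libraries and 61.5 ± 1.98 CPM in untreated libraries, or 36.1%. The other arm of the complex kept more of its level. NDC80 itself averaged 37.2 ± 0.801 CPM in monensin libraries and 68.3 ± 4.46 CPM in untreated libraries, or 54.4%, and its partner NUF2 averaged 46 ± 1.58 CPM in monensin libraries and 74.4 ± 1.66 CPM in untreated libraries, or 61.8%. CENPA, the centromeric histone H3 variant, had 29.5, 30.9 and 30.8 CPM in the monensin libraries, against 40.5, 37.5 and 33.6 CPM in the untreated libraries. It changed least in this role, without overlap (log2 fold change -0.29, SE 0.07, edgeR adjusted p = 0.00125). CENPF, a large kinetochore and nuclear matrix protein, had 211, 209 and 205 CPM in the monensin libraries, against 297, 333 and 335 CPM in the untreated libraries. Again every monensin library was lower (log2 fold change -0.63, SE 0.05, edgeR adjusted p = 1.36e-08). CENPK, CENPM and CENPH belong to the constitutive network on centromeric chromatin, and each was lower in every monensin library. CENPK averaged 22.2 ± 1.49 CPM in monensin libraries and 49.6 ± 2.68 CPM in untreated libraries, or 44.8%. CENPM averaged 32.3 ± 3.23 CPM in monensin libraries and 56.5 ± 4.88 CPM in untreated libraries, or 57.2%. CENPH averaged 26.4 ± 1.43 CPM in monensin libraries and 35.5 ± 1.89 CPM in untreated libraries, or 74.6%. CENPE, the kinetochore motor that brings chromosomes to the spindle equator, also had no overlap and averaged 80.8 ± 1.2 CPM in monensin libraries and 112 ± 7.03 CPM in untreated libraries.

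**Figure D2:**
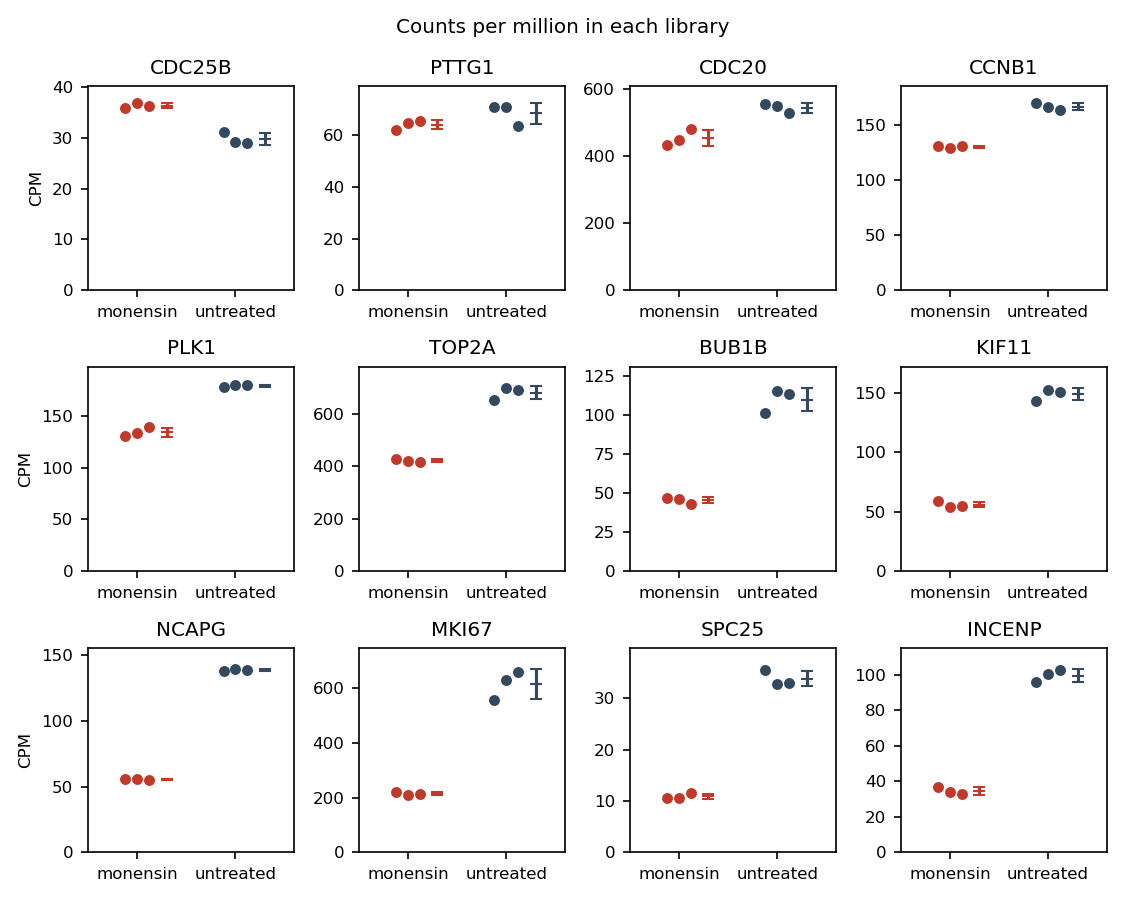
CPM in each library for 12 of the genes, monensin libraries in red and untreated libraries in dark blue, with the mean and SD beside the points; every vertical axis starts at 0. CDC25B sits higher in monensin libraries (36.3 CPM against 29.8 CPM on average), and PTTG1 overlaps between groups. SPC25 and INCENP have the lowest monensin means relative to untreated, at 32.3% and 34.8%.

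The 9 mitotic kinesins were all lowered, 4 of them at least 2-fold. KIF11, or Eg5, the motor that pushes spindle poles apart, had 58.8, 54.3 and 55.2 CPM in the monensin libraries, against 143, 153 and 151 CPM in the untreated libraries. The groups were far apart (log2 fold change -1.41, SE 0.05, edgeR adjusted p = 1.55e-12). KIF15, a motor that can share this task, averaged 41.3 ± 1.19 CPM in monensin libraries and 98.6 ± 5.94 CPM in untreated libraries. KIF2C, or MCAK, a kinesin that shortens microtubules at centromeres, had 88.5, 92.6 and 90.2 CPM in the monensin libraries, against 130.0, 131 and 131 CPM in the untreated libraries. It changed least among the kinesins, still without overlap (log2 fold change -0.53, SE 0.04, edgeR adjusted p = 2.16e-08). KIF20B, a kinesin of cytokinesis with the highest counts among the 9, had 100, 103 and 104 CPM in the monensin libraries, against 155, 156 and 146 CPM in the untreated libraries. Its monensin libraries were all lower (log2 fold change -0.58, SE 0.04, edgeR adjusted p = 1.51e-08). KIF23, the motor of centralspindlin, averaged 35.4 ± 1.13 CPM in monensin libraries and 75.8 ± 2.18 CPM in untreated libraries. KIF14, a motor of the midbody, averaged 32.9 ± 2.15 CPM in monensin libraries and 70.6 ± 4.85 CPM in untreated libraries. KIF20A, or MKLP2, which carries the passenger complex to the central spindle, averaged 36.2 ± 0.783 CPM in monensin libraries and 67.8 ± 2.99 CPM in untreated libraries. In each of these the groups were separate, as they were in the other kinesins of the list. KIF4A, a motor on chromosome arms, averaged 47.4 ± 1.38 CPM in monensin libraries and 70 ± 2.04 CPM in untreated libraries. KIF18A, which dampens chromosome movements, averaged 11.8 ± 0.513 CPM in monensin libraries and 20 ± 0.670 CPM in untreated libraries.

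Spindle and cytokinesis genes followed, with all 8 lowered and 3 lowered at least 2-fold. ANLN, or anillin, the scaffold of the contractile ring, had 57.5, 56.6 and 48.5 CPM in the monensin libraries, against 148, 154 and 155 CPM in the untreated libraries. The untreated libraries were all more than 2-fold higher (log2 fold change -1.49, SE 0.06, edgeR adjusted p = 6.33e-12). TPX2, which activates aurora A on spindle microtubules, had 151, 147 and 153 CPM in the monensin libraries, against 231, 230.5 and 232 CPM in the untreated libraries. There was no overlap (log2 fold change -0.62, SE 0.04, edgeR adjusted p = 1.54e-09). PRC1, which bundles antiparallel microtubules of the central spindle, was listed at 4.75, 5.15 and 5.48 CPM in the monensin libraries, against 6.93, 7.84 and 6.59 CPM in the untreated libraries. Its groups were separate (log2 fold change -0.47, SE 0.11, edgeR adjusted p = 0.00111), but the count is uncertain, because 57.6% of its exonic bases lie in AC068831.7, an annotated gene on the same strand, and PRC1 had 898 counts over all 6 libraries. NUSAP1, a microtubule-binding protein, averaged 114 ± 2.75 CPM in monensin libraries and 232 ± 1.53 CPM in untreated libraries; in GENCODE 29, 62.2% of its exonic bases lie in AC087721.2 on the same strand, which has no count used here, so this count too is uncertain. ASPM, which works at spindle poles, averaged 60.5 ± 3.82 CPM in monensin libraries and 132 ± 12.8 CPM in untreated libraries. Both were lowered at least 2-fold. ECT2, the exchange factor that switches on RhoA for cytokinesis, averaged 34 ± 0.734 CPM in monensin libraries and 62.2 ± 3.14 CPM in untreated libraries. CEP55, which acts at the midbody, averaged 48.1 ± 2.90 CPM in monensin libraries and 82.8 ± 2.22 CPM in untreated libraries, and HMMR, a spindle and hyaluronan-binding protein, averaged 80.5 ± 3.19 CPM in monensin libraries and 119 ± 3.05 CPM in untreated libraries. None of these 5 genes overlapped between groups.

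All 5 condensin genes were lowered, 3 of them at least 2-fold. NCAPG, a regulatory subunit of condensin I, had 55.8, 55.9 and 55 CPM in the monensin libraries, against 138, 139.8 and 139 CPM in the untreated libraries. No monensin library came near the untreated range (log2 fold change -1.32, SE 0.04, edgeR adjusted p = 8.47e-13); 33.1% of its exonic bases overlap LCORL on the opposite strand. NCAPH, the kleisin of condensin I, averaged 45.3 ± 1.63 CPM in monensin libraries and 107 ± 1.77 CPM in untreated libraries, and SMC2, the ATPase shared by both condensins, averaged 70.1 ± 1.12 CPM in monensin libraries and 160.1 ± 4.05 CPM in untreated libraries (SD, n = 3 each). SMC4, the partner ATPase, had 397, 399 and 401 CPM in the monensin libraries, against 638, 661 and 626 CPM in the untreated libraries. It changed least in the complex but without overlap (log2 fold change -0.68, SE 0.04, edgeR adjusted p = 3.25e-10), and 18.5% of its exonic bases overlap TRIM59 on the opposite strand. NCAPD2 averaged 126 ± 4.01 CPM in monensin libraries and 208 ± 7.43 CPM in untreated libraries.

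Of the 4 APC/C and separation genes, 3 were lowered and none at least 2-fold. The share lowered over all tested genes was 33.7%, and it was 42.7% at an average log2 CPM of 2 or more. CDC20, the activator of the APC/C in mitosis, had 434, 449 and 482 CPM in the monensin libraries, against 555, 549.6 and 529 CPM in the untreated libraries. The groups did not overlap (log2 fold change -0.26, SE 0.04, edgeR adjusted p = 8.27e-05). A processed copy of CDC20 held counts equal to 6.81% of those of the gene, so a few reads may be shared. UBE2C, the ubiquitin-conjugating enzyme of the APC/C, averaged 44.7 ± 1.24 CPM in monensin libraries and 50.8 ± 3.70 CPM in untreated libraries (log2 fold change -0.19, SE 0.06, edgeR adjusted p = 0.0108), a call lost with total counts as library sizes (edgeR adjusted p = 0.150) and without untreated replicate 1 (edgeR adjusted p = 0.0582). PTTG1, or securin, which holds separase inactive, had 62.2, 64.9 and 65.4 CPM in the monensin libraries, against 71, 70.9 and 63.6 CPM in the untreated libraries. The highest monensin libraries passed the lowest untreated library, and PTTG1, on chromosome 5 from 160421822 to 160428744, was not called (log2 fold change -0.09, SE 0.05, edgeR adjusted p = 0.131). Without untreated replicate 3, PTTG1 passed the threshold at a log2 fold change of -0.16 (edgeR adjusted p = 0.0205). ESPL1, or separase, the protease that cuts cohesin, had 23.6, 21.2 and 23.7 CPM in the monensin libraries, against 38.6, 37.6 and 39.6 CPM in the untreated libraries. It was lower in every monensin library (log2 fold change -0.76, SE 0.06, edgeR adjusted p = 2.28e-08).

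Both chromosome markers were lowered. MKI67, which encodes the Ki-67 protein that coats mitotic chromosomes and marks dividing cells, had 223, 212 and 215 CPM in the monensin libraries, against 557, 632 and 659.6 CPM in the untreated libraries. The groups were far apart (log2 fold change -1.51, SE 0.05, edgeR adjusted p = 2.65e-12). TOP2A, the topoisomerase that untangles sister chromatids, had 427, 419 and 416 CPM in the monensin libraries, against 652, 698 and 692 CPM in the untreated libraries. Its groups did not overlap (log2 fold change -0.69, SE 0.04, edgeR adjusted p = 4.71e-10).

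Levels of different genes can be set side by side only roughly once divided by exonic length. This length joins all annotated exons of a gene, so it can exceed that of the transcripts present. Ranks on this scale are therefore approximate. On that scale CDC20 was highest in both groups, at 223 ± 12 CPM per kilobase in monensin libraries and 267 ± 6.88 CPM per kilobase in untreated libraries (SD, n = 3 each). The next level in untreated libraries was that of MYBL2, at 192 ± 2.47 CPM per kilobase, ahead of TOP2A at 106 ± 3.94 CPM per kilobase. In monensin libraries MYBL2 was at 73.2 ± 5.74 CPM per kilobase and CKS2 at 73.4 ± 4.92 CPM per kilobase, which did not differ beyond their spread. The lowest was PRC1, at 0.928 ± 0.0662 CPM per kilobase in monensin libraries and 1.29 ± 0.117 CPM per kilobase in untreated libraries. That rank is uncertain, because 57.6% of the exonic bases of PRC1 lie in AC068831.7 on the same strand.

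Ratios of counts between functional partners compare 2 genes inside each library and need no scaling for library size. Trends with GC content and exonic length may remain in them, and ratios with these trends removed were not computed. For CDC25B, removing them took the log2 fold change from 0.28 to 0.10. Of 12 pairs chosen for shared function, 9 had log2 ratios that did not overlap between groups. Each had the smallest exact permutation p of 0.1 (two-sided, adjusted p = 0.133 over the 12 pairs), so none can pass 0.05 in this design. How often other pairs of genes separate in this way was not measured. With 33.7% of all tested genes lowered and 34.1% raised, the 9 cannot be called particular to these partners. CDC25B over CDC25C had a log2 ratio of 1.97, 2.09 and 1.83 in the monensin libraries, against 1.13, 0.94 and 0.92 in the untreated libraries, a difference of 0.97. FOXM1 over MYBL2 stood at -1.57, -1.61 and -1.70 in the monensin libraries, against -2.35, -2.35 and -2.36 in the untreated libraries, a difference of 0.72. PTTG1 over ESPL1, the inhibitor over its protease, was 1.40, 1.62 and 1.47 in the monensin libraries, against 0.88, 0.92 and 0.69 in the untreated libraries, a difference of 0.67. Within the NDC80 complex, NDC80 over SPC24 was 0.81, 0.76 and 0.66 in the monensin libraries, against 0.17, 0.19 and 0.09 in the untreated libraries, a difference of 0.59. In these 4 pairs the level of the first gene, relative to untreated, was above that of the second.

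Other partners drifted apart less or not beyond the spread. The log2 ratio differed by -0.33 for KIF20A over KIF20B, -0.25 for BUB1 over BUB3, -0.15 for KIF11 over KIF15, -0.14 for CCNB1 over CCNB2 and -0.13 for NCAPG over SMC2, without overlap. The groups overlapped for AURKA over AURKB, with log2 ratios of 1.64, 1.71 and 1.52 in the monensin libraries, against 1.56, 1.73 and 1.68 in the untreated libraries (difference -0.03, exact permutation p = 0.6). CENPE over CENPH gave 1.70, 1.55 and 1.58 in the monensin libraries, against 1.53, 1.76 and 1.68 in the untreated libraries (difference -0.05, exact permutation p = 0.8). CKS1B over CKS2 gave -0.36, -0.52 and -0.39 in the monensin libraries, against -0.45, -0.64 and -0.39 in the untreated libraries (difference 0.07, exact permutation p = 0.6). For these 3 pairs a difference was not detectable with 3 libraries a group, and the sign turned when 1 library was left out.

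**Figure D3:**
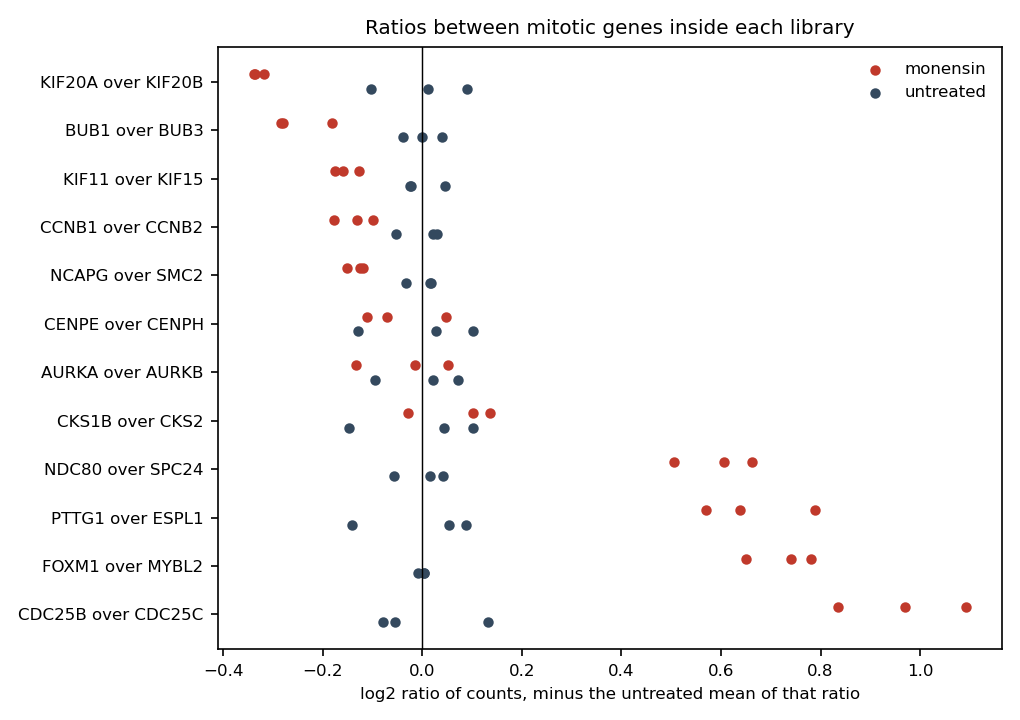
Log2 ratio of counts between 12 pairs of partner genes in each library, shown minus the untreated mean of that ratio, with monensin libraries in red above untreated libraries in dark blue. Differences run from KIF20A over KIF20B at -0.33 to CDC25B over CDC25C at 0.97, and 3 pairs overlap between groups.

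Genes of the same machines outside the list were read from the same fit. In that fit, 33.7% of all tested genes were lowered and 34.1% were raised. Of 31 other kinetochore and centromere genes, 27 were lowered, 1 was raised and 3 were not called, with a median log2 fold change of -0.79. ZWINT, which links the checkpoint to the kinetochore, averaged 127 ± 0.859 CPM in monensin libraries and 338 ± 10.1 CPM in untreated libraries. KNL1, the scaffold of checkpoint signalling, averaged 50.7 ± 3.85 CPM in monensin libraries and 122 ± 8.69 CPM in untreated libraries. SKA3, of the microtubule-tracking SKA complex, averaged 33.8 ± 0.376 CPM in monensin libraries and 76.6 ± 1.37 CPM in untreated libraries. These were the 3 that changed most. MAD1L1, the MAD2 partner, was raised, at 88 ± 5.71 CPM in monensin libraries and 60.6 ± 0.673 CPM in untreated libraries (log2 fold change 0.54, SE 0.05, edgeR adjusted p = 2.27e-07). All 3 condensin II subunits were lowered, with log2 fold changes of -1.36 for NCAPD3, -1.35 for NCAPG2 and -0.48 for NCAPH2. Of 35 other spindle and centrosome genes, 31 were lowered and 4 were not called, at a median of -0.70, with PLK4, the kinase of centriole duplication, at a log2 fold change of -1.25, STIL, its partner, at -1.10 and SPAG5, a spindle protein, at -1.05.

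Cohesin and its regulators had 13 of 15 genes lowered, 1 raised and 1 not called, at a median log2 fold change of -0.51. Over all tested genes, 33.7% were lowered and 34.1% were raised. ESCO2, which acetylates cohesin in S phase, averaged 24.8 ± 0.783 CPM in monensin libraries and 97.8 ± 1.87 CPM in untreated libraries. SMC1A, a cohesin ATPase, averaged 147 ± 9.94 CPM in monensin libraries and 377 ± 23 CPM in untreated libraries. CDCA5, or sororin, which protects cohesin on chromosomes, averaged 61.5 ± 1.5 CPM in monensin libraries and 122 ± 4.29 CPM in untreated libraries. ESCO1, the paralogue of ESCO2, was raised (log2 fold change 0.23, SE 0.07, edgeR adjusted p = 0.00564). Of 16 regulators of mitotic entry and exit, 13 were lowered, 2 were raised and 1 was not called, at a median of -0.69; the lowest were the phosphatase CDC25A at a log2 fold change of -1.65, the kinase PBK at -1.35 and the Greatwall kinase MASTL at -1.29. CDC14B was raised by 0.28 on the log2 scale and ENSA, a MASTL substrate, by 0.10 (edgeR adjusted p = 0.00099 and 0.0377), and the call of ENSA was lost in 8 other fits.

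Genes of the APC/C itself were read in the same way. Of 17 subunits, activators and inhibitors, 10 were lowered, 2 were raised and 5 were not called, at a median log2 fold change of -0.19. Over all tested genes, 33.7% were lowered and 34.1% were raised. Among tested genes with an average log2 CPM of 2 or more, 42.7% were lowered. FBXO5, or EMI1, the inhibitor of the complex, averaged 29.7 ± 1.57 CPM in monensin libraries and 77.4 ± 2.66 CPM in untreated libraries (log2 fold change -1.38, SE 0.06, edgeR adjusted p = 7.72e-12). ANAPC1, its largest subunit, averaged 33.4 ± 5.19 CPM in monensin libraries and 74 ± 9.93 CPM in untreated libraries; pseudogene copies of ANAPC1 may share its reads. ANAPC16, a small subunit, was raised, at 123 ± 2.15 CPM in monensin libraries and 76.3 ± 1.16 CPM in untreated libraries (log2 fold change 0.69, SE 0.04, edgeR adjusted p = 1.28e-09). CDC16 was raised by 0.14 on the log2 scale (edgeR adjusted p = 0.0169), a call lost without monensin replicate 3 (adjusted p = 0.0514), without untreated replicate 3 (adjusted p = 0.0815) and with no filter (adjusted p = 0.0854).

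Kinesins that carry cargo outside mitosis were called about as often in each direction as tested genes in general. Of 17, 16 were tested, 5 were lowered, 5 were raised and 6 were not called, at a median log2 fold change of -0.05 beside -0.91 for the 9 mitotic kinesins; over all tested genes 33.7% were lowered and 34.1% raised. KLC4, a kinesin light chain, averaged 24.3 ± 1.98 CPM in monensin libraries and 9.59 ± 0.631 CPM in untreated libraries, and KIF21B averaged 50.4 ± 4.64 CPM in monensin libraries and 30.4 ± 2.00 CPM in untreated libraries, both raised, while KIF21A was lowered at 8.83 ± 0.730 CPM in monensin libraries and 14.6 ± 1.47 CPM in untreated libraries (SD, n = 3 each). KIF1B, KIF13A and KLC1 were also raised, by 0.35, 1.85 and 0.42 on the log2 scale, with KIF13A at most at 1.05 CPM in any library.

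DNA replication and G1/S genes, which act before mitosis, were lowered almost throughout. Of 33, 32 were lowered and 26 were lowered at least 2-fold, at a median log2 fold change of -1.20, beside 58 of 60, 20 of 60 and -0.74 for the mitotic genes. CCNE2, an E-type cyclin, had the lowest fold change and averaged 23.2 ± 1.40 CPM in monensin libraries and 102 ± 5.12 CPM in untreated libraries. MCM10, a replication factor, averaged 29.6 ± 1.38 CPM in monensin libraries and 125 ± 5.50 CPM in untreated libraries. RRM2, a subunit of ribonucleotide reductase, averaged 34.4 ± 1.72 CPM in monensin libraries and 142 ± 1.53 CPM in untreated libraries. CDT1, which licenses origins, was not called, at 196 ± 9.40 CPM in monensin libraries and 185 ± 3.53 CPM in untreated libraries (log2 fold change 0.09, SE 0.04, edgeR adjusted p = 0.0938). Of 18 DREAM, E2F and NF-Y genes, 14 were lowered, 2 were raised and 2 were not called, at a median of -0.51. Over all tested genes, 33.7% were lowered, 3.83% at least 2-fold, and 34.1% were raised. E2F8, E2F7 and E2F2 were lowest of the 18, at log2 fold changes of -2.39, -2.17 and -1.76. E2F5 was raised by 0.64 and LIN37 by 0.75 on the log2 scale, LIN37 at levels of only 1.17 to 3.29 CPM and with its call lost in 3 other fits.

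Among 10 inhibitors of cyclin-dependent kinases and pocket proteins, 8 were tested, 4 were lowered, 3 were raised and 1 was not called, against 33.7% lowered and 34.1% raised over all tested genes. CDKN1A, or p21, averaged 24.9 ± 0.622 CPM in monensin libraries and 14.5 ± 0.740 CPM in untreated libraries (log2 fold change 0.78, SE 0.07, edgeR adjusted p = 3.95e-08). CDKN1B, or p27, averaged 36.8 ± 0.571 CPM in monensin libraries and 31.5 ± 0.984 CPM in untreated libraries (log2 fold change 0.22, SE 0.05, edgeR adjusted p = 0.00174), and CDKN1C, or p57, averaged 3.01 ± 0.517 CPM in monensin libraries and 0.833 ± 0.369 CPM in untreated libraries (log2 fold change 1.85, SE 0.25, edgeR adjusted p = 8.21e-06). The inhibitor CDKN2C, or p18, was lowered (log2 fold change -0.23, SE 0.04, edgeR adjusted p = 0.000173) and CDKN2D was not called. The pocket proteins RBL1, or p107, and RB1 were lowered, at log2 fold changes of -1.08 and -0.65, as was RBL2 (log2 fold change -0.29, SE 0.05, edgeR adjusted p = 0.000183).

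**Figure D4:**
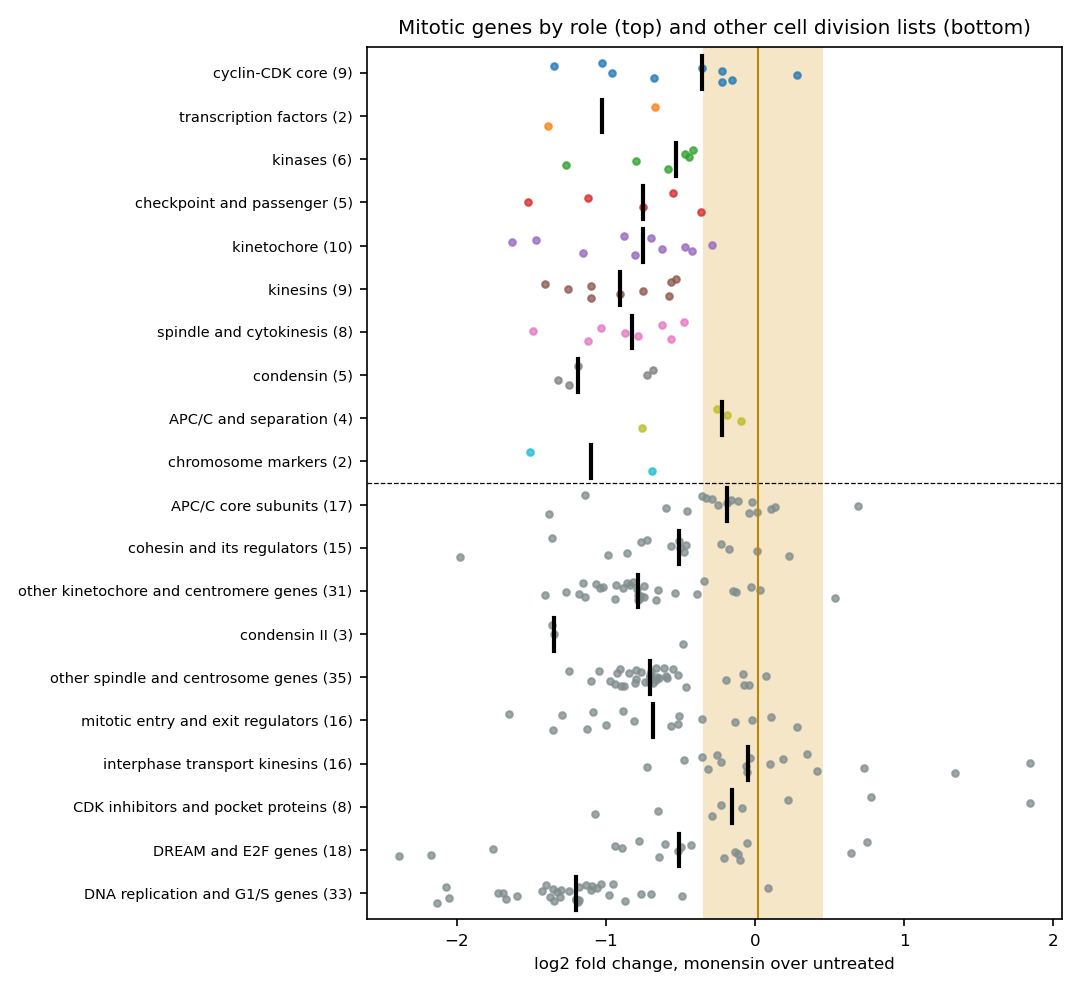
Log2 fold change, monensin over untreated, of each tested gene in the 10 roles (coloured points, top) and in 10 other cell division lists (grey points, bottom), with the median as a black bar and the number of genes in brackets; the shaded band spans the quartiles of all tested genes, -0.34 to 0.45, around their median of 0.02. The replication list has its median at -1.20 and the transport kinesins have theirs at -0.05, inside the band.

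Most promoter windows of the mitotic genes held the elements that their class is known for. TTTGAA was found on either strand in 37 of 51 windows (72.5%), against 3.57% of 28 windows of the replication list and 12.1% of 15843 windows of all protein-coding genes. Counting also the variant TTCGAA, 38 of 51 windows (74.5%) held a CHR form, against 7.14% in the replication list and 13.5% of all windows. CCAAT was found in 38 windows (74.5%), against 53.6% in the replication list and 36.4% of all windows, and both a CHR form and CCAAT in 30 (58.8%), against 7.14% and 5.57%. An E2F-like motif, TTCCCGC, was found in 6 windows (11.8%), against 46.4% in the replication list and 8.60% of all windows, and TATAAA in 3 windows (5.88%), against 9.63% of all windows. For genes with several listed starts the first window was used; with any window, 40 of 51 genes (78.4%) held a CHR form, against 17.5% of all genes.

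Most matches lay near the start. In 30 of the 37 genes with TTTGAA, a match began between 60 bases before and 40 bases after the gene start, and in 33 of the 38 genes with CCAAT a box began between 120 and 40 bases before it. Windows with at least 2 CCAAT boxes numbered 24. Positions and numbers of matches were not counted in the windows of other genes, so neither can be called particular to the mitotic genes. The median fold change varied little with the elements. It was -0.79 for genes with a CHR form and -0.68 for genes without, and -0.77 for genes with CCAAT and -0.88 for genes without. Among the windows shown, CCNB2, with 5 matches, had a log2 fold change of -0.22, and SPC25, with 4, had -1.63. PTTG1 (-0.09) and CDC25B (0.28) had no CHR match in the windows shown. These genes were picked by their fold changes, so they cannot show whether matches and fold changes go together.

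**Figure D5:**
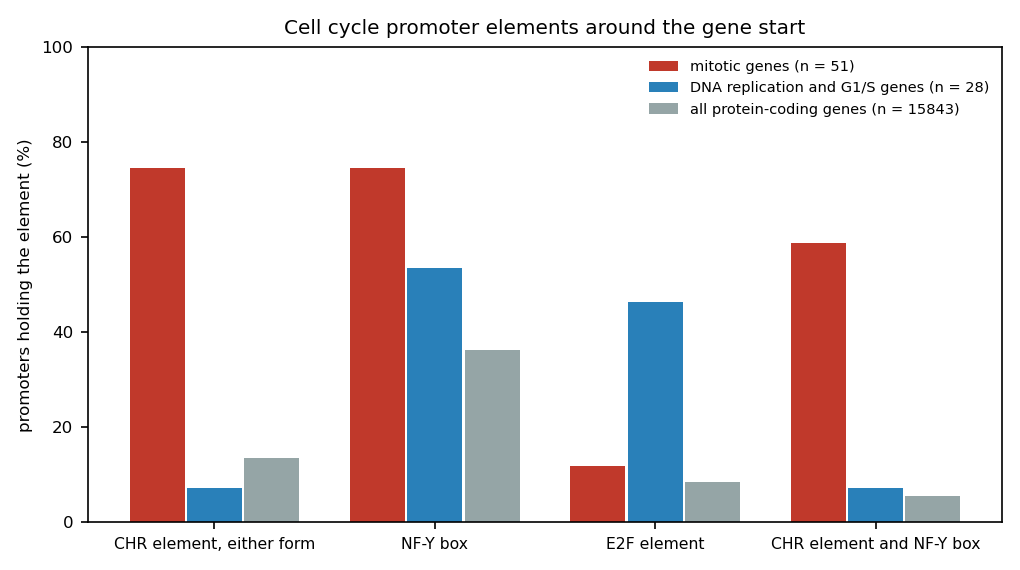
Share of promoter windows (percent) that hold a CHR form, the CCAAT box bound by NF-Y, the E2F-like motif or both a CHR form and the CCAAT box, for 51 mitotic genes (red), 28 DNA replication and G1/S genes (blue) and 15843 protein-coding genes (grey). The mitotic genes are at 74.5% for the CHR and 11.8% for the E2F motif, and the replication genes at 7.14% and 46.4%.

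The authors' deposited table of regulated genes holds 2410 genes, of which 1688 have a positive and 722 a negative log2 fold change, all beyond 1 in size. It lists 20 of the 60 mitotic genes, all with negative values, and these are the 20 genes lowered at least 2-fold here. In the authors' deposited table the values run from -1.65 for SPC25 to -1.04 for CDK1.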

How the data were processed

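Total RNA of 6 THP-1 samples was extracted with Trizol, made into directional NEBNext Ultra II libraries and sequenced as single reads on a NextSeq 500, per the labels' protocols. For each library the authors deposited unnormalized counts per Ensembl gene. The submitters' processing notes name HISAT2 2.1.0, HTSeq 0.11.1, DESeq2 1.22.2, Trimmomatic 038 and bcl2fastq, and the build GRCh38 (hg38). The annotation release, the strand setting of the counting and the RNA selection are not given in the sources used here. A second kind of deposited file is a table of log2 fold changes of regulated genes, without errors. Tally lines of reads without a gene (21.6% of alignments in monensin and 19.3% in untreated libraries, on average) were left out.

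Groups came from the treatment label. Counts were tested with edgeR 4.0.16 (limma 3.58.1, R 4.3.3) with quasi-likelihood F tests, TMM library sizes, its filter by group and only treatment in the model, and with Benjamini-Hochberg adjustment over all 16542 tested genes; a call is an adjusted p under 0.05. The standard error (SE) of a log2 fold change was derived from this test, as its absolute value divided by the square root of the F statistic. Ratios added 0.5 to each count. At the depth of 22975888 to 25710513 gene counts per library, even the least counted of the 60 genes had 898 counts in all. Positions, exonic lengths and overlaps come from GENCODE 29, in which 58275 of the 58395 identifiers were found, and promoter windows from RefSeq. Both strands were searched for TTTGAA and its variant TTCGAA (together the CHR), for the box CCAAT, for the E2F-like motif TTCCCGC and for the box TATAAA. The script was tested on simulated counts.

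In each role, the genes with the largest and smallest absolute change and the highest CPM are given in every library, with every gene raised or not called; in each other list, the up to 3 called genes that changed most at an average log2 CPM of 2 or more are named, with genes that moved against the rest where 5 or fewer did so. CD14, CDT1, CDKN2C, CDKN2D, RBL2 and the genes given by their means were added after their values were seen. One of the 10 markers of other cell types is not reported here by name. The 60 genes, the roles and the lists were chosen with earlier results of these data known. Alternatives were library sizes from RLE or from totals, a stricter filter or none, DESeq2 1.42.0 in place of edgeR, a block for the replicate number, an adjusted p under 0.01, loess offsets for exonic length and GC content, and each library left out in turn.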

Additional observations from a re-analysis of the deposited data

How the results depend on the processing

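Under every alternative run, 55 to 59 of the 60 mitotic genes were lowered, 15 to 20 at least 2-fold. Leaving out one library gave 56 to 59 lowered, 20 lowered at least 2-fold and 1 raised. The one alternative without a raised gene removed trends with GC content and exonic length: 0 were raised, CDC25B lost its call (log2 fold change 0.10, edgeR adjusted p = 0.0976) and PTTG1 gained one (-0.19, adjusted p = 0.0015). With total counts alone, CKS1B (adjusted p = 0.318), CKS2 (0.0840) and UBE2C (0.150) lost their calls; UBE2C also lost it without untreated replicate 1 (0.0582). Of 780 refits of single members, 770 kept direction and call and none changed sign. Among all tested genes, 4609 of 16542 were lowered with total counts alone and 5206 of 16542 with DESeq2. With trends in GC content and length removed, 5736 of 16523 were lowered. Leaving out one library gave from 5260 of 16771 to 5484 of 16943 lowered.

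Role medians moved by more than their spread between replicates under 2 settings. With total counts alone they were -0.65 for all 60 genes, -0.27 for the cyclin-CDK core, -0.94 for transcription factors, -0.44 for kinases, -0.67 for checkpoint and passenger genes, -0.67 for kinetochore genes, -0.82 for kinesins, -0.74 for spindle and cytokinesis genes, -1.10 for condensin and -0.14 for APC/C and separation genes. With GC content and length trends removed they were -0.66, -0.31, -1.23, -0.61, -0.89 and -0.61 for the first 6 of these groups, -0.65 for spindle and cytokinesis genes, -0.95 for condensin, -0.41 for APC/C and separation genes and -0.95 for chromosome markers. The cause was not tested. Among the markers, PTPRC changed sign in that second setting (0.054, edgeR adjusted p = 0.215). Leaving out one library turned the sign of 3 log2 ratio differences that were near 0 throughout: AURKA over AURKB (-0.079 to 0.019), CENPE over CENPH (-0.11 to 0.0064) and CKS1B over CKS2 (-0.0035 to 0.12).

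Deviations of libraries with the same replicate number had correlations of -0.12, 0.14 and 0.04 over 16542 genes. Those of libraries with different numbers ran from -0.20 to 0.16. With 3 libraries a group, these values cannot tell whether the numbers pair the libraries. With the replicate number as a block, 58 mitotic genes were lowered, 1 was raised, 20 were lowered at least 2-fold and the median was -0.74. In that fit 5435 of all 16542 tested genes were lowered and 5515 were raised. Counts carry no molecular identifiers, and 3 libraries a group limit ratios to an exact p of 0.1.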

Other observations

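The fold changes of the 60 genes had weak to modest correlations with measured features of the genes. Removing trends with GC content and exonic length still moved most role medians, as given above. These genes (n = 60) share libraries and are not independent replicates. Across them the log2 fold change had a Pearson correlation of -0.30 with log2 exonic length and -0.11 with average log2 CPM. With the GC content of the longest transcript it was 0.19. Median GC content of the longest transcript was 42.9% for the 60 genes and 48.3% for all tested genes, and median exonic length was 4313 and 4255 bases.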
